A study of Homo sapiens with 6 samples.

Results

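The genes of the mitochondrial ribosomal proteins were examined in A549 cells, a human lung adenocarcinoma line, after silencing of NME2. Members were chosen by symbol, as every gene named MRPL or MRPS with a number by a probe set (a group of oligonucleotides read together) that carries 1 symbol. Where a gene had several probe sets, the one that stands for it was selected on its mean signal over all 6 arrays, the brightest being taken. This gave 142 probe sets and 77 symbols. Protein-coding genes made up 75 of them, 48 of the large subunit (MRPL) and 27 of the small subunit (MRPS), of 19775 genes with a probe set of 1 symbol. All 75 passed the filter on dim probe sets, and so did 12406 genes in all. The antisense transcript MRPL20-AS1 and the pseudogene MRPL45P2 also meet the letters of the rule and are given apart. MRPS36 had no probe set with 1 symbol. MRPL53 and MRPS24 were on the array only by a probe set that carries a second symbol, so they are not members (differences of -0.02 each, not called).

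Cells of the NME2-depleted group (n = 3 arrays) had been treated transiently with short interfering RNA (siRNA) that targets NME2, a nucleoside diphosphate kinase that also binds DNA. Control cells (n = 3 arrays) had received control siRNA duplexes. No other agent, time point or genetic change was named for either group, and no duplex sequence was given. The series names the 3 arrays of a group biological replicates without describing the cultures, so the p-values cover only the spread among the 6 arrays, which may be technical. All differences below are those of mean log2 signal, NME2-depleted minus control, so a negative value is a lower signal in NME2-depleted cells.

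The mitochondrial ribosome translates the few messenger RNAs encoded in mitochondrial DNA, which specify core subunits of the respiratory chain and of ATP synthase. Its RNA is transcribed inside the organelle, whereas its proteins are encoded in the nucleus, made on cytosolic ribosomes and imported. The small subunit binds and decodes the messenger RNA, and the large subunit joins the amino acids. Many of its proteins have counterparts in bacterial ribosomes, and others are found only in mitochondria.

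The NME2 probe set, which also carries the read-through symbol NME1-NME2, gave signals of 1920, 3676 and 3216 on the NME2-depleted arrays and 17862, 19389 and 21044 on the control arrays (log2 difference -2.78, SE 0.19, limma adjusted p = 0.00032). Median signals of the arrays were 75.7 to 85.2. All 8 epithelial and A549 markers on the list were tested and 0 passed the adjusted threshold in limma, with 1 lower and 2 higher at an unadjusted p under 0.05 (EPCAM 0.71, KRT8 -0.24 and CDH1 0.21). Of the markers of other cell types, 2 of 5 for alveolar type 2 cells, 3 of 6 for leukocytes and 3 of 6 for fibroblasts were bright enough to be tested, and 0 passed in limma, adjusted or not. The lowest p-values of these lists were those of SFTPC (0.64) and SFTPB (0.21), CD14 (-0.38) and CD3E (0.24), and DCN (0.66) and LUM (0.46). The defining leukocyte gene PTPRC lay at 4.90 to 25.5, below the filter signal of 71.7. The ratio of 3' to 5' signal of the ACTB control probe sets, a measure of RNA length, was 1.33, 1.34 and 1.40 in NME2-depleted and 1.20, 1.30 and 1.23 in control arrays. These groups did not overlap (means 1.36 and 1.25, exact two-sided permutation p = 0.1), whereas the GAPDH ratio overlapped (means 1.02 and 0.995, exact p = 0.5). The part of this ratio in the differences below was not tested. In whole-culture RNA, fewer cells of a kind and less RNA per cell cannot be told apart.

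After silencing of NME2 few mitochondrial ribosomal protein genes passed the test, and those that did were lower. MRPS5 of the small subunit and MRPL38 of the large subunit fell, to 0.725 and 0.735 of their control signal, and these were the only 2 of 75 members past an adjusted p of 0.05 in limma. Over all 12406 genes tested 0.54% passed, 49 lower and 18 higher, so most calls on the array were lower too. At an unadjusted p under 0.05, 8 members were lower and 0 higher, beside 7.75% of all genes lower and 7.25% higher. A lower mean in NME2-depleted arrays was found for 54 of 75 members (72.0%), against 49.8% of all genes. With each array left out in turn this count ran from 45 (without NME2-depleted replicate 3) to 57 (without control replicate 1). Without probe sets whose oligonucleotides are shared between transcripts it was 22 of 39 members. In 17 members all 3 NME2-depleted arrays lay below all 3 control arrays (10.1% of all genes), and in 1 all lay above (10.4% of all genes). The median difference was -0.04 over the members, with a range from -0.46 to 0.18, and 0.0006 over all genes tested. Array by array, the median over members of log2 signal minus the gene's mean was -0.017, 0.018 and -0.064 in NME2-depleted arrays. In control arrays it was 0.011, 0.017 and 0.064, so the groups overlapped. NME2-depleted replicate 2 lay above control replicates 1 and 2, and the replicate 3 arrays were the lowest and the highest. Genes are not replicates, and no p was computed over the members.

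**Figure D1:**
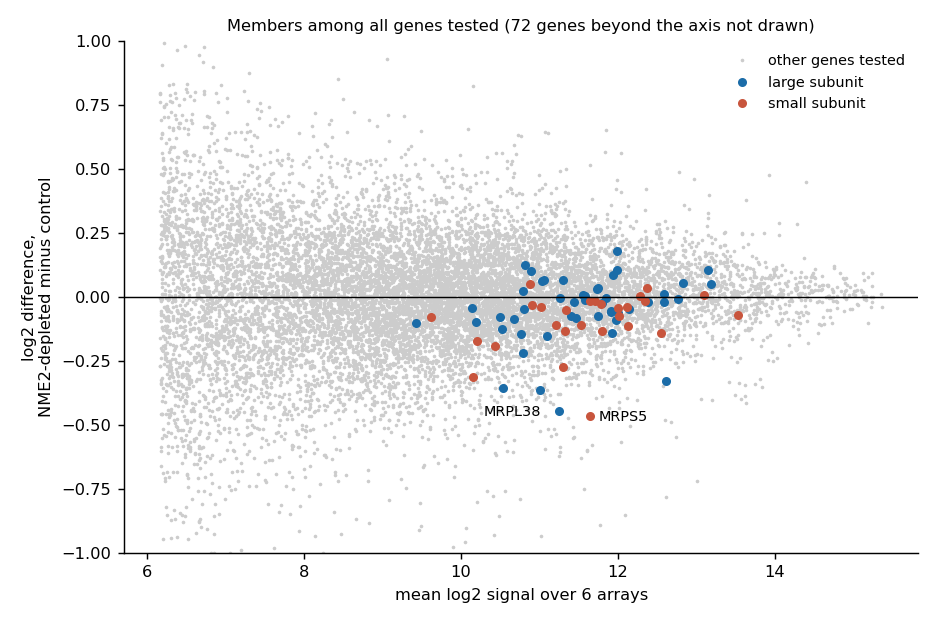
Log2 difference, NME2-depleted minus control (y axis), against mean log2 signal over 6 arrays (x axis) for the genes tested, 1 point a gene; blue points are large subunit genes and red points small subunit genes, and 72 genes beyond a difference of 1 are not drawn. The members lie close to 0, with MRPS5 at -0.46 and MRPL38 at -0.44 as the lowest and MRPL52 at 0.18 as the highest.

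MRPS5, the mitochondrial counterpart of a bacterial small subunit protein that lies near the entry of the messenger RNA, gave signals of 2715, 2864 and 2584 in NME2-depleted cells and 3523, 3818 and 3924 in control cells. The lowest control array was above the highest NME2-depleted one. The means were 2721 ± 140 and 3755 ± 208 (SD, n = 3 each) (log2 difference -0.46, SE 0.08, limma adjusted p = 0.0321). A second, dimmer MRPS5 probe set was at 385, 286 and 296 against 337, 401 and 381, so that its groups overlapped (-0.22, limma adjusted p = 0.604). The brightest MRPS5 probe set is of the design whose oligonucleotides can match more than 1 transcript. Those of MRPL34, MRPL36, MRPL55, MRPL46 and MRPS25, described below, are of the same design.

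MRPL38, a mitochondria-specific protein of the central protuberance of the large subunit, read 1931, 2260 and 2095 in NME2-depleted cells and 2786, 2801 and 2954 in control cells. Again the groups did not overlap. Its means were 2095 ± 165 and 2847 ± 93.2 (SD, n = 3 each) (log2 difference -0.44, SE 0.08, limma adjusted p = 0.0467). Another MRPL38 probe set ran the other way, at 34.3, 54.9 and 60.8 against 11.9, 16.6 and 32.9, but lay below the filter and was not tested.

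Both calls are close to the threshold. With NME2-depleted replicate 1, 2 or 3 or control replicate 2 or 3 left out, 0 members passed in limma (6 to 10 were lower at an unadjusted p under 0.05, and 3 higher without control replicate 3), and without control replicate 1 only MRPS5 passed.

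**Figure D2:**
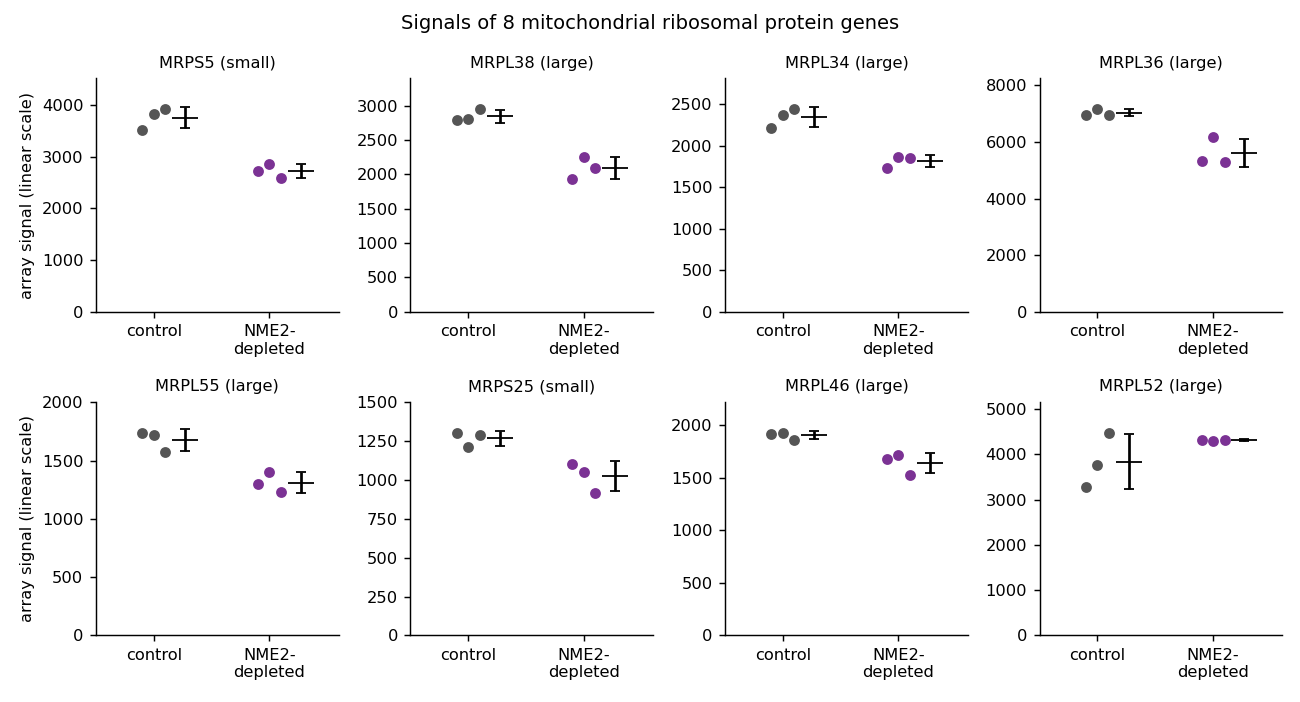
Array signal on a linear scale (y axis, from 0) of 8 members in control (grey) and NME2-depleted (purple) cells, 1 point an array, with the mean and SD of 3 arrays beside each group. The groups are apart in 7 panels, with NME2-depleted arrays lower, and overlap for MRPL52, whose control arrays run from 3276 to 4480.

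Other members of the large subunit had lower signals on every NME2-depleted array without passing the adjusted threshold. MRPL34, counterpart of a small bacterial large subunit protein, had signals of 1738, 1868 and 1850 in NME2-depleted cells and 2210.4, 2373 and 2447 in control cells (log2 difference -0.37, SE 0.08, limma adjusted p = 0.0748). MRPL36, likewise shared with bacteria, was at 5346, 6179 and 5305 in NME2-depleted cells against 6971, 7172 and 6958 in control cells (-0.33, limma adjusted p = 0.0943). These lay just outside the threshold in the main fit. Both passed when the replicate number was fitted as a block (limma adjusted p = 0.0353 and 0.0281). MRPL55, the counterpart of bacterial L31, was at 1303, 1403 and 1230.2 against 1742, 1718 and 1574 (-0.36, SE 0.09, limma adjusted p = 0.112). MRPL46, which sits with MRPL38 in the central protuberance, was at 1674, 1714 and 1529 against 1919, 1930 and 1862 (-0.22, limma adjusted p = 0.278). In MRPL27, MRPL39, MRPL2 and MRPL18 the NME2-depleted arrays were also all lower, with differences of -0.14, -0.12, -0.10 and -0.09. Their limma adjusted p-values were 0.454 to 0.717.

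In the small subunit, MRPS25 was at 1103, 1051 and 918 in NME2-depleted cells and 1305, 1213 and 1286 in control cells (log2 difference -0.31, SE 0.10, limma adjusted p = 0.199). MRPS34, a mitochondria-specific protein, was at 2329, 2227 and 2314 against 2595, 2427 and 3365 (-0.27, limma adjusted p = 0.330). Its control replicate 3 stood well above the other 2, and without it the difference was -0.13. MRPS9, shared with bacteria, was at 1104, 1114 and 1108 against 1221, 1300.1 and 1224 (-0.17, limma adjusted p = 0.411). MRPS35, which is mitochondria-specific, was at 5457, 6046 and 5633 against 6233, 6289 and 6342 (-0.14, limma adjusted p = 0.406). MRPS17, MRPS7 and MRPS21 completed the 8 small subunit members with no overlap, at -0.13, -0.11 and -0.07.

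Higher signals were smaller and mostly overlapped. MRPL52 was at 4326, 4284 and 4313 in NME2-depleted cells and 3276, 3754 and 4480 in control cells (log2 difference 0.18, limma adjusted p = 0.494). Its control arrays spanned both sides of the NME2-depleted ones, and the difference was 0.07 without control replicate 1 and 0.30 without control replicate 3. MRPL48, MRPL33, MRPL49 and MRPL50 followed at 0.13, 0.10, 0.10 and 0.10, with limma adjusted p-values of 0.572 to 0.654. Single control arrays moved these values. MRPL48 was at 0.05 without control replicate 1 and 0.21 without control replicate 3, MRPL33 at 0.06 without control replicate 2 and 0.16 without control replicate 3, and MRPL50 at 0.04 without control replicate 3. The single member with all NME2-depleted arrays above all controls was MRPL3, a protein close to the peptidyl transferase centre, at 9465, 9670 and 9376 against 9164, 9094 and 9262 (0.05, limma adjusted p = 0.774). In the small subunit the higher means were those of MRPS2 (0.05), MRPS16 (0.04), MRPS15 (0.006) and MRPS23 (0.006). MRPS15, MRPS16 and MRPS23 were below 0 when each array was centred on its median (-0.04, -0.01 and -0.04), a setting that moved the median of all genes from 0.0006 to -0.05. MRPL58, a peptidyl-tRNA hydrolase built into the large subunit, was at 0.04, and MRPL12, which is also known to bind the mitochondrial RNA polymerase, at -0.07.

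The promoters of 4 of these members are shown, those of the 2 called genes, of MRPL36 as a lower gene with both an NRF1 and a YY1 match and of MRPL52 as the gene with the highest difference. Each is the stretch of 150 bases just before the most upstream start that RefSeq gives (GRCh38.p14), written 5′ to 3′ on the strand of the gene, and capitals mark matches to the motifs named below. They lie at chr2:95122004-95122153 on the minus strand for MRPS5, chr17:75904885-75905034 on the minus strand for MRPL38, chr5:1799838-1799987 on the minus strand for MRPL36 and chr14:22829737-22829886 on the plus strand for MRPL52.
MRPS5: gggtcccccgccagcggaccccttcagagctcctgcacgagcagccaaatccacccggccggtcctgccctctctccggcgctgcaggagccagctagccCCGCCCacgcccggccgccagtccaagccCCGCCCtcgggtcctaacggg
MRPL38: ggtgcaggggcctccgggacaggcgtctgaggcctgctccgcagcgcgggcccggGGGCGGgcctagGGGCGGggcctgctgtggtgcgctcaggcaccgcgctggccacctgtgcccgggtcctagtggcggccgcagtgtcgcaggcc
MRPL36: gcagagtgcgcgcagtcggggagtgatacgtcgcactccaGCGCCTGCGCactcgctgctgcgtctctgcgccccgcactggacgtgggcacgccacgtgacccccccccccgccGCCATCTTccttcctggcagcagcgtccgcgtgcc
MRPL52: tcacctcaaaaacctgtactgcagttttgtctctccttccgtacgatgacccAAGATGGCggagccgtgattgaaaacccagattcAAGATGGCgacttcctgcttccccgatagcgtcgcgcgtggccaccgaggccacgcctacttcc

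Motifs were searched as exact letters on both strands in windows from 250 bases before to 50 bases after each start, and a gene counts when any of its windows holds a match. Each motif was counted on its own, also where matches of different motifs shared bases. A window was found for 67 of the 75 members and for 27305 genes in all, and not for MRPL2, MRPL10, MRPL13, MRPL15, MRPL21, MRPL23, MRPL35 and MRPS28. In these shares all genes are the 27305 with a window, whether tested on the array or not. They were not matched to the members for signal. The YY1 motif AAGATGGC was in 20 members (29.9%) and in 3.52% of all genes. The ETS motif CCGGAAGT was in 11 members (16.4%) and 4.95% of all genes, and the NRF1 motif (GCGC, any base, then TGCGC) in 9 members (13.4%) and 6.98% of all genes. These are motifs of nuclear factors known to act on many mitochondrial genes. The GC box GGGCGG was in 40 members (59.7%) against 48.3%, and the TATA box TATAAA in 3 members (4.48%) against 13.99%. One or more of the YY1, ETS and NRF1 motifs stood in 33 of 67 members (49.3%) and in 13.9% of all genes.

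Among the printed stretches, those of MRPS5 and MRPL38 hold 2 GC boxes each, that of MRPL36 an NRF1 and a YY1 match, and that of MRPL52 a pair of YY1 matches. Outside these stretches the window of MRPL38 holds a YY1 match from base 7 after the start, an ETS match at -209 and a further GC box at -230, and that of MRPL52 an ETS match that begins at -6 and runs across the start. The window of a second, downstream start of MRPS5 holds a further GC box, at -16 from that start. A match is a description of letters and not a bound site. The median difference of the members was -0.03 with and -0.05 without a YY1 match, -0.05 and -0.04 for ETS, -0.02 and -0.04 for NRF1, and -0.05 and -0.04 for the GC box. The genes of these factors were on the list of regulators, of which 9 were tested and 0 passed in limma (0 at an unadjusted p under 0.05). A lower mean was found for 6 of the 9 (66.7%, against 49.8% of all genes), with a median of -0.08 and a range from -0.34 to 0.15. YY1 itself was at 8527, 8832 and 9076 in NME2-depleted cells and 8768, 8329 and 7885 in control cells (0.08). GABPB1, a subunit of an ETS-family factor, was at -0.10 with no overlap, and NRF1 was at 0.03.

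Some of these promoter windows overlap the window of a gene on the other strand. For 21 members a divergent neighbour had a promoter window that overlapped theirs, and for 16 the neighbour had a probe set bright enough to be tested. They form 15 pairs, of which 1 joins the members MRPL46 and MRPS11 (-0.22 and -0.04). The other 14 neighbours had a median difference of 0.02, 6 were lower and 0 passed in limma (2 at an unadjusted p under 0.05). Both genes of a pair had the same sign in 10 of 15 pairs, 6 lower and 4 higher. No share over all genes was computed for such overlaps or pairs. MRPS12, the counterpart of the bacterial decoding-centre protein S12, was at -0.07, and its neighbour SARS2, the mitochondrial seryl-tRNA synthetase, was at 761, 858 and 742 against 961, 1071 and 966 (-0.35, limma adjusted p = 0.172). MRPL50 and ZNF189 were both higher (0.10 and 0.21). Of the neighbours, these were chosen after their values were seen.

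The subunits were compared as the rule asks. Of the large subunit members 31 of 48 had a lower mean (64.6%), 9 with no overlap and lower, 1 with no overlap and higher, and 1 called. Of the small subunit members 23 of 27 had a lower mean (85.2%), 8 with no overlap, all lower, and 1 called. Over all genes tested these shares were 49.8% with a lower mean, 10.1% with no overlap and lower, 10.4% with no overlap and higher, and 0.54% called. The median difference was -0.02 in the large and -0.07 in the small subunit (lower quartiles -0.09 and -0.13). Over all genes tested the median was 0.0006 and the lower quartile -0.13. The large minus small difference of these medians was 0.05. The large subunit median was -0.005 without NME2-depleted replicate 3 and -0.01 without control replicate 3, -0.04 without NME2-depleted replicate 1 or control replicate 1, -0.03 without NME2-depleted replicate 2, and above 0, at 0.007, without probe sets shared between transcripts.

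**Figure D3:**
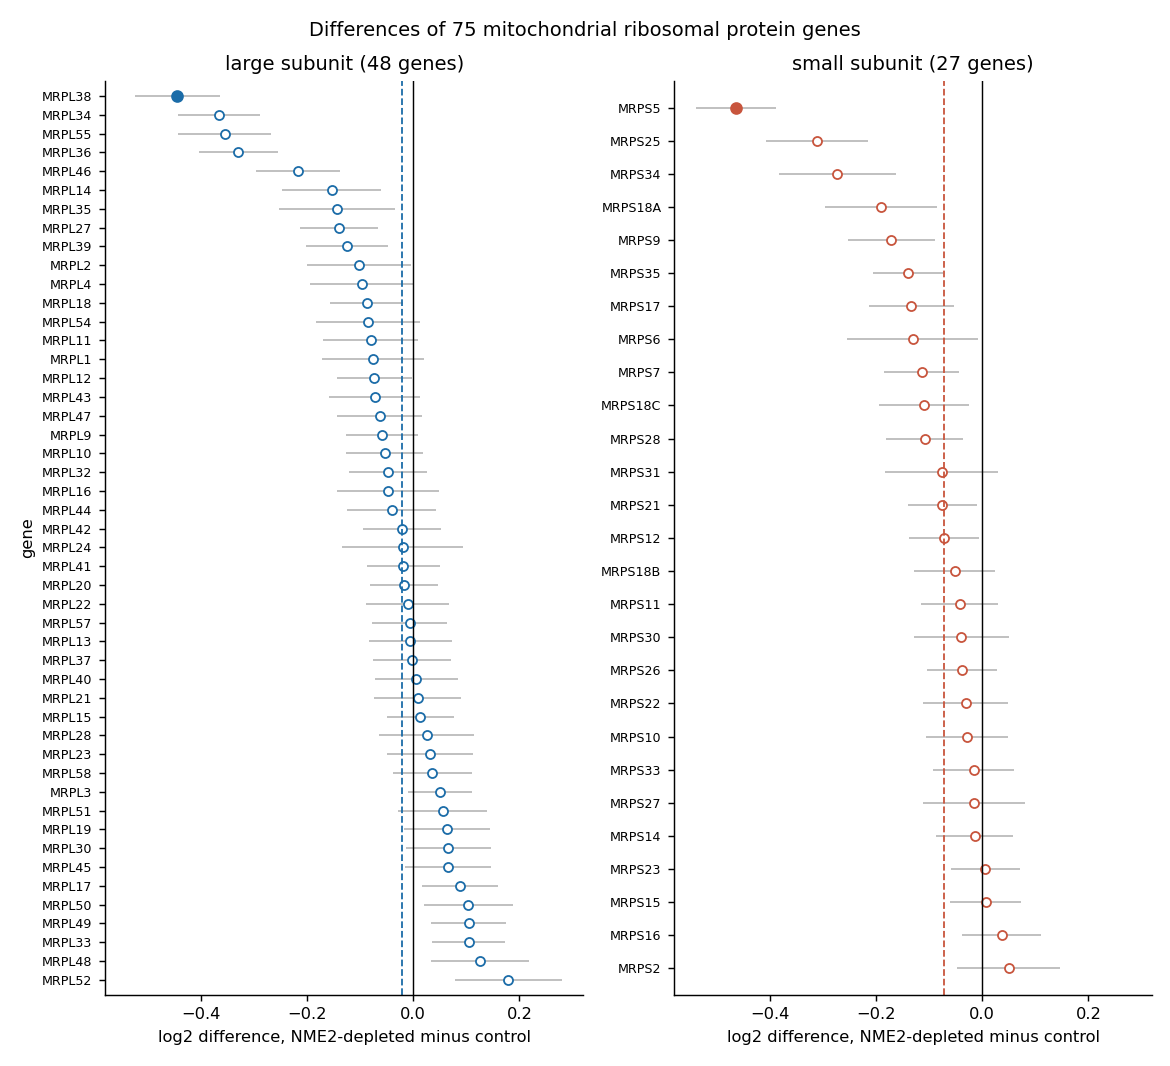
Log2 difference, NME2-depleted minus control (x axis), with its SE for each of the 48 large and 27 small subunit genes (y axis), ordered by value; filled points passed the limma adjusted threshold, open points did not, and the dashed line is the subunit's median. 17 large subunit genes lie above 0, and 4 small subunit genes do.

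The subunits were also followed on single arrays. The median over large subunit genes of log2 signal minus the gene's mean over 6 arrays was -0.002, 0.02 and -0.06 in the NME2-depleted arrays and -0.002, -0.003 and 0.05 in the control arrays, so the groups overlapped. For the small subunit it was -0.04, -0.003 and -0.08 against 0.02, 0.03 and 0.07, without overlap. NME2-depleted replicate 3 was the lowest and control replicate 3 the highest in both subunits. The large minus small difference was 0.04, 0.03 and 0.02 in NME2-depleted and -0.02, -0.03 and -0.01 in control arrays. These groups did not overlap, and with 3 arrays a group no exact test could go below 0.1.

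**Figure D4:**
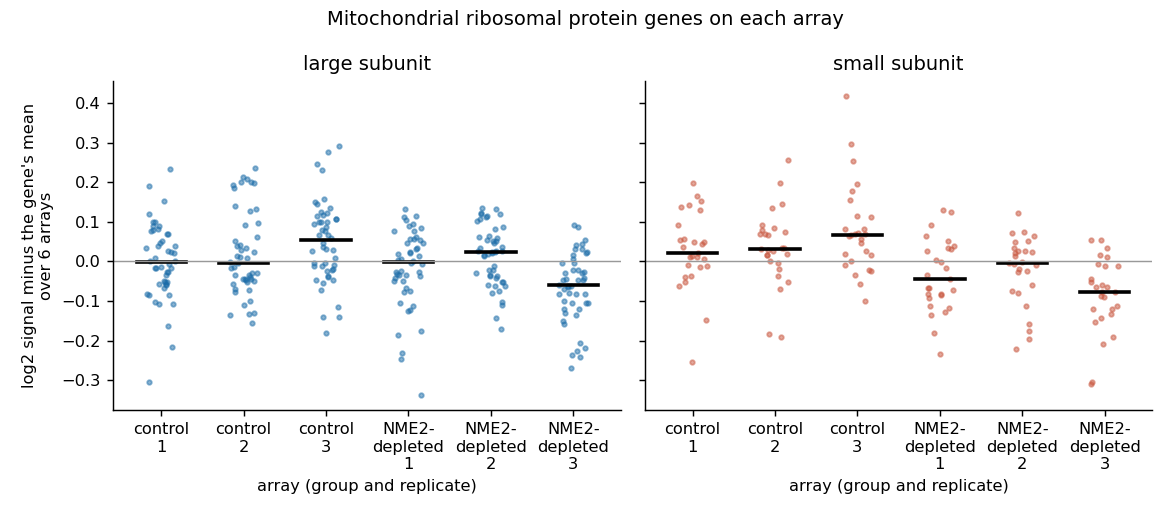
Log2 signal minus the gene's mean over 6 arrays (y axis) on each array (x axis), 1 point a gene, for the large (left) and small (right) subunit, with the median as a black bar. Small subunit medians run from -0.08 to -0.003 in NME2-depleted and from 0.02 to 0.07 in control arrays, and large subunit medians overlap.

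The members differed in brightness. Their median signal was 3073, against 799 over all genes tested, so the shares of all genes given above are not matched for signal. Brightness depends on the probes, so it does not rank transcripts. The brightest probe sets were those of MRPL3 (0.05), MRPL33 (0.10) and MRPL51 (0.06) in the large subunit and MRPS12 (-0.07), MRPS15 (0.006) and MRPS35 (-0.14) in the small subunit. The dimmest were MRPL2 (-0.10) and MRPL44 (-0.04), and MRPS31 (-0.08) and MRPS25 (-0.31).

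Within each subunit the genes were further split by origin. Proteins shared with bacteria had a lower mean in 21 of 30 large subunit genes (median -0.05) and in 12 of 15 small subunit genes (median -0.07). Mitochondria-specific proteins had a lower mean in 10 of 18 large subunit genes (median -0.004) and in 9 of 10 small subunit genes (median -0.04). The S18 paralogues MRPS18A and MRPS18B, which belong to neither class, were at -0.19 and -0.05. Some symbols do not match the place of the protein in the structure: MRPS30 and MRPS18A are part of the large subunit. MRPS30 was at -0.04. Counted by structure, the medians were -0.03 over 50 large and -0.07 over 25 small subunit genes, and their difference was 0.04.

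Of the 140 probe sets of protein-coding members 123 were tested, and 28 members had more than 1. In 13 of these the other probe sets had the sign of the brightest, and in 15 at least 1 had the opposite sign. The difference from 0 on the opposite side was over 0.2 in 5 members. MRPS25 had other probe sets at -0.26 and 0.36, MRPL42 (brightest -0.02) at 0.23 and 0.39, MRPL19 (0.06) at -0.23 and 0.54, MRPS23 (0.006) at -0.33 and MRPS30 at 0.21 and 0.19. None of these passed in limma. Probe sets of 1 gene can read different transcripts or exon ends, so a member's value is that of its brightest probe set only. MRPL20-AS1 was at 466, 519 and 331 against 515, 564 and 391 (-0.17, limma adjusted p = 0.759), and MRPL45P2, at 3.0 to 26.6, did not pass the filter.

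The genes that build, serve or depend on the mitochondrial ribosome were read from lists. Mitoribosome proteins with other symbols had 4 of 6 genes lower and 0 called in limma, with 1 lower and 0 higher at an unadjusted p under 0.05. DAP3, a GTP-binding protein of the small subunit, was at 4344, 4091 and 3884 in NME2-depleted cells and 4479, 4604 and 4663 in control cells (-0.16, limma adjusted p = 0.368), with no overlap. GADD45GIP1 was at -0.16, and MRPL58, also on this list, is a member. The assembly factors process the RNA and join proteins to it. Of these 18 of 25 had a lower mean (72.0%, against 49.8% of all genes), with a median of -0.07. Without overlap 5 were lower and 1 higher, beside 10.1% and 10.4% of all genes. None of the 25 was called in limma, and 2 were lower and 0 higher at an unadjusted p under 0.05. These were FASTKD2, a mitochondrial RNA-binding protein, at 1294, 1328 and 1206 against 1588, 1548 and 1338 (-0.22, limma adjusted p = 0.350), and the ribosomal RNA methyltransferase MRM2 at -0.18 (0.363).

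Translation factors were lower in 8 of 15 genes (median -0.03), and 0 were called in limma, with 1 at an unadjusted p under 0.05. That gene was MTIF3, the initiation factor that works on the small subunit, at 709, 703 and 662 in NME2-depleted cells and 819, 946 and 963 in control cells (-0.39, SE 0.10, limma adjusted p = 0.132), with no overlap. MTRFR was at 0.21. The genes of mitochondrial DNA maintenance and transcription were split 5 of 10 (median -0.03), with 0 called and 0 at an unadjusted p under 0.05 in limma, among them POLRMT at -0.19 and POLG2 at 0.21. Respiratory chain and ATP synthase subunits were lower in 37 of 70 genes (median -0.01), with 7 lower and 5 higher without overlap and 0 called in limma (3 lower and 4 higher at an unadjusted p under 0.05). Without overlap 10.1% of all genes were lower and 10.4% higher. NDUFB7 was at 0.28 (limma adjusted p = 0.149) and ATP5MC1 at -0.25 (0.160).

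Most cytosolic ribosomal proteins had higher means. Of the large subunit 7 of 34 were lower and of the small subunit 4 of 20, with medians of 0.05 and 0.02. None was called in limma, with 2 higher and 0 lower in the large subunit at an unadjusted p under 0.05 and 0 in the small subunit. The pair of higher genes was RPL10L (0.76) and RPL36 (0.17), and in the small subunit RPS25 (0.10) and RPS18 (0.10) had the lowest p. On single arrays the groups overlapped. The median of log2 signal minus the gene's mean was -0.07, 0.003 and 0.15 in NME2-depleted and -0.15, -0.007 and 0.08 in control arrays for the large subunit. For the small subunit it was -0.10, -0.03 and 0.17 against -0.15, 0.01 and 0.10. Within a group these values spread far wider than the medians of 0.05 and 0.02, and in both groups they rose with the replicate number. Against the control of the same number, NME2-depleted arrays were higher throughout in the large subunit, and in the small subunit except for replicate 2. Read in the same way, the mitochondrial large subunit was lower only in replicate 3, and the mitochondrial small subunit in every replicate. No test of the difference between these lists was made.

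**Figure D5:**
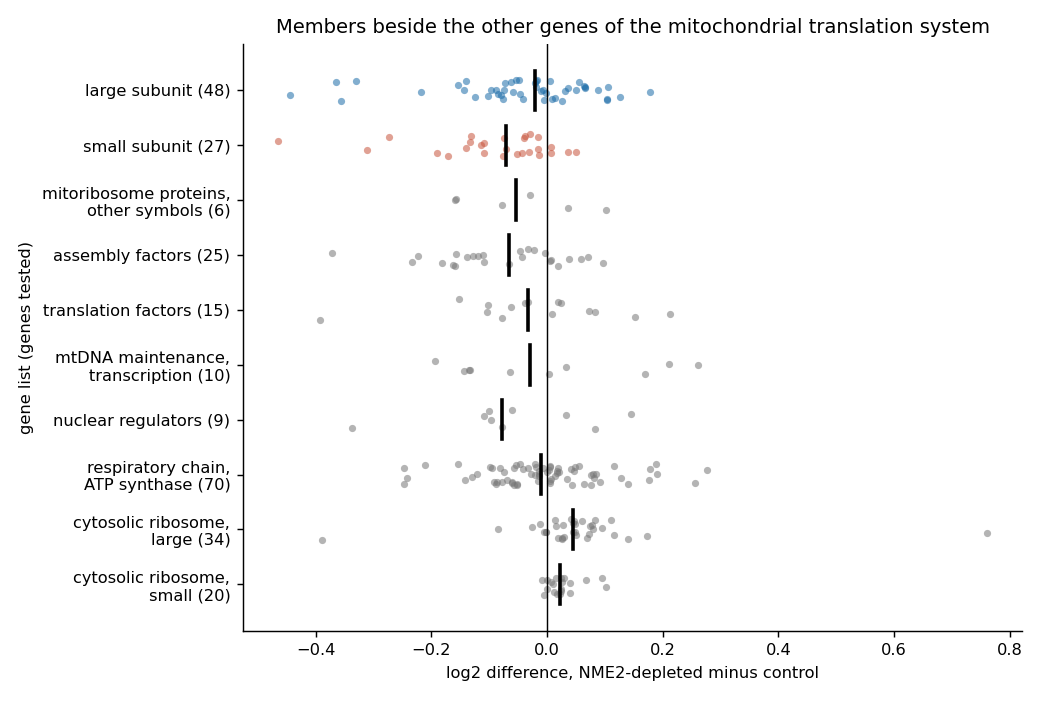
Log2 difference, NME2-depleted minus control (x axis), 1 point a gene, for both mitochondrial subunits (colour) and for the other lists (grey; y axis, with the number of genes tested), and the median as a black bar. Medians run from -0.08 for the regulators to 0.05 for the large cytosolic subunit.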

How the data were processed

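Total RNA of 6 samples was copied to biotin-labelled cRNA and hybridised to Affymetrix HG-U133 Plus 2.0 arrays. The deposited table holds 1 linear intensity per probe set and array, made by the authors with GCOS 1.1.1 (submitters' processing notes). All arrays share a trimmed mean of 500.1 (2% trimmed at each end), so a shift common to all transcripts would not be seen. Arrays have no read depth, and their number, 3 per group, limits the precision. Series text and methods name different siRNA suppliers.

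Control probe sets were left out. Signals under 1 were set to 1, log2 was taken, and the 27307 of 54613 probe sets with a mean log2 at or above the median (signal 71.7) entered the fit (limma 3.58.1, R 4.3.3: lmFit, then eBayes with trend), two-sided, with Benjamini-Hochberg adjustment over all of them. Folds are 2 to the power of the difference. The platform annotation, of 2016, named the genes. The procedure was also run on simulated data whose planted changes were larger than that of any member. Changes of the members' size were not tested there. Single values were also compared by exact permutation, whose smallest p is 0.1. Promoters are from RefSeq, GRCh38.p14. The members and lists were chosen with earlier results of these data known. Named were called members, the 5 of lowest p per subunit and direction, the 3 brightest and 2 dimmest per subunit, members with disagreeing probe sets, those whose symbol and place differ, and up to 2 genes of lowest p per list. Other named genes, MRPL12, MRPL58, NRF1, CDH1, the neighbours and the remaining members listed with no overlap among them, were chosen after their values were seen. Alternatives were other scalings, filters, variance models and probe set rules, the replicate block, the methods' t-test and each array left out.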

Additional observations from a re-analysis of the deposited data

How the results depend on the processing

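The number of members past the adjusted threshold, 2, was 1 with quantile normalization (MRPS5; MRPL38 had a limma adjusted p of 0.0518), 0 with no filter, 0 with no intensity trend, 0 when a gene's probe sets were averaged, and 1 (MRPL38, of 39 members left) without probe sets whose oligonucleotides are shared between transcripts. At an unadjusted p under 0.05 limma still gave 7 to 9 lower and 0 higher members in the 3 settings with 0 calls. Without shared probe sets it gave 2 lower and 0 higher of 39 members, beside 7.75% of all genes lower in the main setting. The number past the adjusted threshold was 3 with a filter at the 75th percentile, MRPL34 being added. The methods' t-test gave 4 at an unadjusted 0.005 (MRPL34, MRPL38, MRPS5 and MRPS9, all lower, beside 2.22% of all genes) and 0 after Benjamini-Hochberg adjustment. Leaving out each array in turn gave 0 to 1. MRPS5 was called in 6 of 14 alternatives (limma adjusted p 0.0159 to 0.265) and MRPL38 in 5 of 15 (0.0229 to 0.265).

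With the replicate number as a block 4 members passed (MRPL34, MRPL36, MRPL38 and MRPS5, all lower). Same-numbered samples shared correlations of deviations of 0.11, 0.08 and 0.07, and the other combinations ran from -0.08 to 0.005. Every sample thus correlated best with its own number. The main fit held no covariate and did not take the numbers as pairs, and the series does not say whether they mark paired cultures. Any effect shared by a replicate number therefore stayed in the spread of the main fit.

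Median centring moved the median difference to -0.091 over all members, -0.069 in the large and -0.12 in the small subunit, and that of all genes tested from 0.0006 to -0.048, so every gene shifted alike. A lower mean was then found for 63 of 75 members (84.0%) and 60.6% of all genes. The large minus small difference was 0.065 with averaged probe sets and 0.083 without shared probe sets, where 22 of 39 members had a lower mean. With each array left out it ran from 0.019 to 0.054 (0.019 without control replicate 1, 0.033 without NME2-depleted replicate 1), and the count of lower means from 45 to 57. MRPS15 was -0.013 under quantile normalization and -0.042 under median centring, where MRPS16 was -0.011 and MRPS23 -0.042, from that common shift. MRPS23 was -0.16 with averaged probe sets and MRPL50 -0.030 without shared probe sets. With an array left out, MRPS2 ran from -0.033 to 0.13, MRPS15 from -0.019 to 0.041, MRPS23 from -0.021 to 0.025, MRPS16 from -0.027 to 0.083, MRPL52 from 0.071 to 0.30, MRPL48 from 0.049 to 0.21, MRPL33 from 0.064 to 0.16 and MRPL50 from 0.040 to 0.15. The large subunit median ran from -0.044 to -0.005 and was 0.007 without shared probe sets. Causes other than the common shift were not tested. Of 278 values of named members under alternatives, 242 kept their direction and side of the threshold. Most of these are of members that were not called in the main setting. The 18 values that lost a call were all of MRPS5 and MRPL38, the only members with a call to lose.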
